A study of Homo sapiens with 12 samples.

Results

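The genes described here are the oxygen-sensing genes and targets of the hypoxia-inducible factors (HIFs). They were taken as a list of 37 gene symbols, matched in the array annotation by current symbol or older synonym, and 36 of them were measured among 19775 genes on the array. Among the probe sets annotated to a single gene, the brightest by its mean of 12 arrays stood for that gene. The listed gene without such a probe set, CA9, a carbonic anhydrase, was not analysed here.

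HIF is a pair of proteins, an oxygen-regulated alpha subunit (HIF1A or EPAS1, also called HIF-2 alpha) and a stable partner, ARNT. With oxygen present, the prolyl hydroxylases EGLN1 and EGLN3 mark the alpha subunit, VHL then recruits it for destruction, and HIF1AN hydroxylates a further site that blocks its coactivators. When oxygen falls the alpha subunit accumulates as protein and switches on genes for glycolysis, removal of mitochondria, collagen modification and its own hydroxylases, a response known from many solid tumours.

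All 12 samples derive from the human cell line NCI-H1299, established from a non-small cell lung cancer, with 3 in each of 4 groups. The groups were xenograft tumours grown from spheroid cells, xenograft tumours grown from parental cells, spheroid cells in culture in a stem cell medium, and parental cells in culture in a medium with serum. To make spheroids, monolayer cells spent 7 to 10 days in the stem cell medium, and the cells found floating were moved to flasks with very low attachment. The titles call the samples biological replicates. The labels state neither the host species nor whether each tumour grew in an animal of its own, so p-values cover only the spread seen among these samples, and some of it may be technical. Every group is 1 cell line, spheroid and parental cells differ in medium as well as in growth form, and in bulk RNA fewer cells of a type and less RNA per cell cannot be told apart.

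The values are log2 expression levels, 1 per probe set and array. Array medians ran from 5.85 to 6.03 and parental culture held both the narrowest array (replicate 1, interquartile range 2.82) and the widest (replicate 2, 3.44). The 5′ probe set of 18S ribosomal RNA read 6.96 and 10.50 on these arrays, against 12.21 to 13.34 on the other 10. Values without them are given below. VIM, the mesenchymal filament vimentin, read 13.55 to 14.70 and KRT18, an epithelial keratin, 10.28 to 13.01, while the epithelial adhesion genes CDH1 and EPCAM lay below the array's lower quartile on all 12 arrays.

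HIF binds DNA at a short core, ACGTG or GCGTG. Stretches of promoter are shown for genes that passed the test in at least 1 comparison, where RefSeq provides a promoter and a core was found. The windows searched ran from 250 bases before to 50 bases after each transcription start in the RefSeq promoters of GRCh38.p14, on both strands, and 30 of the 36 measured genes had at least 1 window. At least 1 core was found for 26 of the 30 genes (86.7%), against 52.4% of 27305 genes with a promoter. ACGTG was found for 20 genes (66.7%, against 24.9%) and GCGTG for 19 genes (63.3%, against 40.6%), and a gene with both counts under each. Member promoters were also richer in G and C, with a median of 69.2% against 58.7%, and the part of base composition in these shares was not tested. Capitals mark a core or its reverse complement (CACGT or CACGC), and CACGTG is a palindrome that holds the core on both strands and is also the E-box letters. A match is a description of letters and not a measured binding site.
ANKRD37 (chr4:185396659-185396722, plus strand): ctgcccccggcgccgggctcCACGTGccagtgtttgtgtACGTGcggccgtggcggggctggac
ADM (chr11:10304952-10304996, plus strand): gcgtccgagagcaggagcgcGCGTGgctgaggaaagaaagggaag
P4HA1 (chr10:73096928-73096972, minus strand): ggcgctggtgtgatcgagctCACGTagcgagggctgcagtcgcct
ERO1A (chr14:52695648-52695748, minus strand): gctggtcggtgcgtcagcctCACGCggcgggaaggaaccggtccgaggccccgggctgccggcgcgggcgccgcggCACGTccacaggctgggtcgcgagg
FAM162A (chr3:122384070-122384170, plus strand): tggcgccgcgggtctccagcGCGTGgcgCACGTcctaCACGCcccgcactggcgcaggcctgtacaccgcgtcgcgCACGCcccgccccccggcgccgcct
MXI1 (chr10:110210084-110210142, plus strand): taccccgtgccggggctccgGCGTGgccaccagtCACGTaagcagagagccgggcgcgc
PDK1 (chr2:172556053-172556089, plus strand): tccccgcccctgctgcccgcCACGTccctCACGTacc
PFKFB3 (chr10:6202804-6202849, plus strand): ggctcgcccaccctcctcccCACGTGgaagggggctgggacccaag
PFKFB4 (chr3:48556945-48556989, minus strand): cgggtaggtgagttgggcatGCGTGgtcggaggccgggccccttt
KDM3A (chr2:86441325-86441369, plus strand): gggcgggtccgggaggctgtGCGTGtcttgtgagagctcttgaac
EGLN1 (chr1:231422288-231422320, minus strand): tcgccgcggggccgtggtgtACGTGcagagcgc

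Parental culture had the lowest of the 4 group means for 24 of the 36 genes (66.7%, against 31.3% of all genes), and parental xenografts had the highest for 23 (63.9%, against 19.0%). Both held for 16 genes (44.4%, against 8.35%). The share of all genes was not matched to the 36 by brightness. In parental cells the genes were higher in xenografts than in culture by a median of 0.98 log2 units, against -0.0091 over all genes. Without parental culture replicate 1 that median was 0.87, against -0.023 over all genes, and 29 of the 36 were positive. It was 1.13 without replicate 2, and 1.14 without both. In spheroid cells the median difference between xenografts and culture was -0.0046, against -0.047 over all genes.

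A gene was called when its adjusted p was under 0.05 in limma's moderated test, with Benjamini-Hochberg adjustment over all 19775 genes. For parental cells, xenografts against culture, 12 of 36 genes were called, where 3.47% of all genes were. All 12 rose (33.3%, against 2.00% of all genes) and none fell, where 1.48% of all genes did. For spheroid against parental cells in culture, 7 rose (19.4%, against 0.885%) and 1 fell (2.78%, against 1.58%). Of all genes, 2.46% were called in that comparison. Between the xenografts none was called, where 0.233% of all genes were (0.0506% higher and 0.182% lower in spheroid xenografts). At an unadjusted p under 0.05 in either direction, 10 of the 36 differed between the xenografts, where 1452 of all 19775 genes did. All 10 were lower in spheroid xenografts than in parental xenografts, and the 1452 were not split by direction. For spheroid cells, xenografts against culture, none was called, where 0.0202% of all genes were, and 2 of the 36 and 1461 of all genes had an unadjusted p under 0.05. The interaction, defined as the difference between spheroid and parental xenografts less the same difference in culture, was called for 1 gene (2.78%, against 0.137% of all genes). It was negative, as for 0.0708% of all genes, and no member was called positive, where 0.0657% of all genes were. The 21 calls fell on 15 genes (41.7%, against 4.81% of all genes called in at least 1 comparison).

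Same-numbered arrays deviated together between spheroid xenografts and spheroid culture. They did so less clearly between the xenografts, where 2 of 3 arrays of each group correlated best with their own number. Spheroid xenograft replicate 1 correlated better with parental xenograft replicate 2 (0.26) than with replicate 1 (0.18). The highest same-number correlation between the xenografts was that of replicate 3 (0.48). Replicate 3 had interquartile ranges of 3.23 and 3.29 in spheroid and parental xenografts, against 2.98 to 2.99 for replicates 1 and 2. In spheroid culture it was also the widest (3.07, against 2.86 and 2.92). Whether the replicate number follows array spread was not tested. Both comparisons were also fitted on their own 6 arrays with the replicate number as a block. That fit was chosen after the data were seen and leaves 2 residual degrees of freedom. Between the xenografts it called 6 genes, all lower in spheroid xenografts (16.7%, against 1.40% of all genes lower, 1.09% higher and 2.48% in either direction). They were CITED2 (adjusted p = 0.0200), PDK1 (0.0239), PFKFB3 (0.0257), PFKFB4 (0.0292), HILPDA (0.0479) and PLOD2 (0.0497). For spheroid cells it called EPAS1 and ANKRD37, both higher in spheroid xenografts than in spheroid culture (5.56%, against 2.10% of all genes higher, 0.885% lower and 2.99% in either direction), at adjusted p of 0.0320 and 0.0455. With the block over all 12 arrays neither comparison called a member. Below, a gene counts as called only by the 12-array fit without the block unless the block is named.

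**Figure D1:**
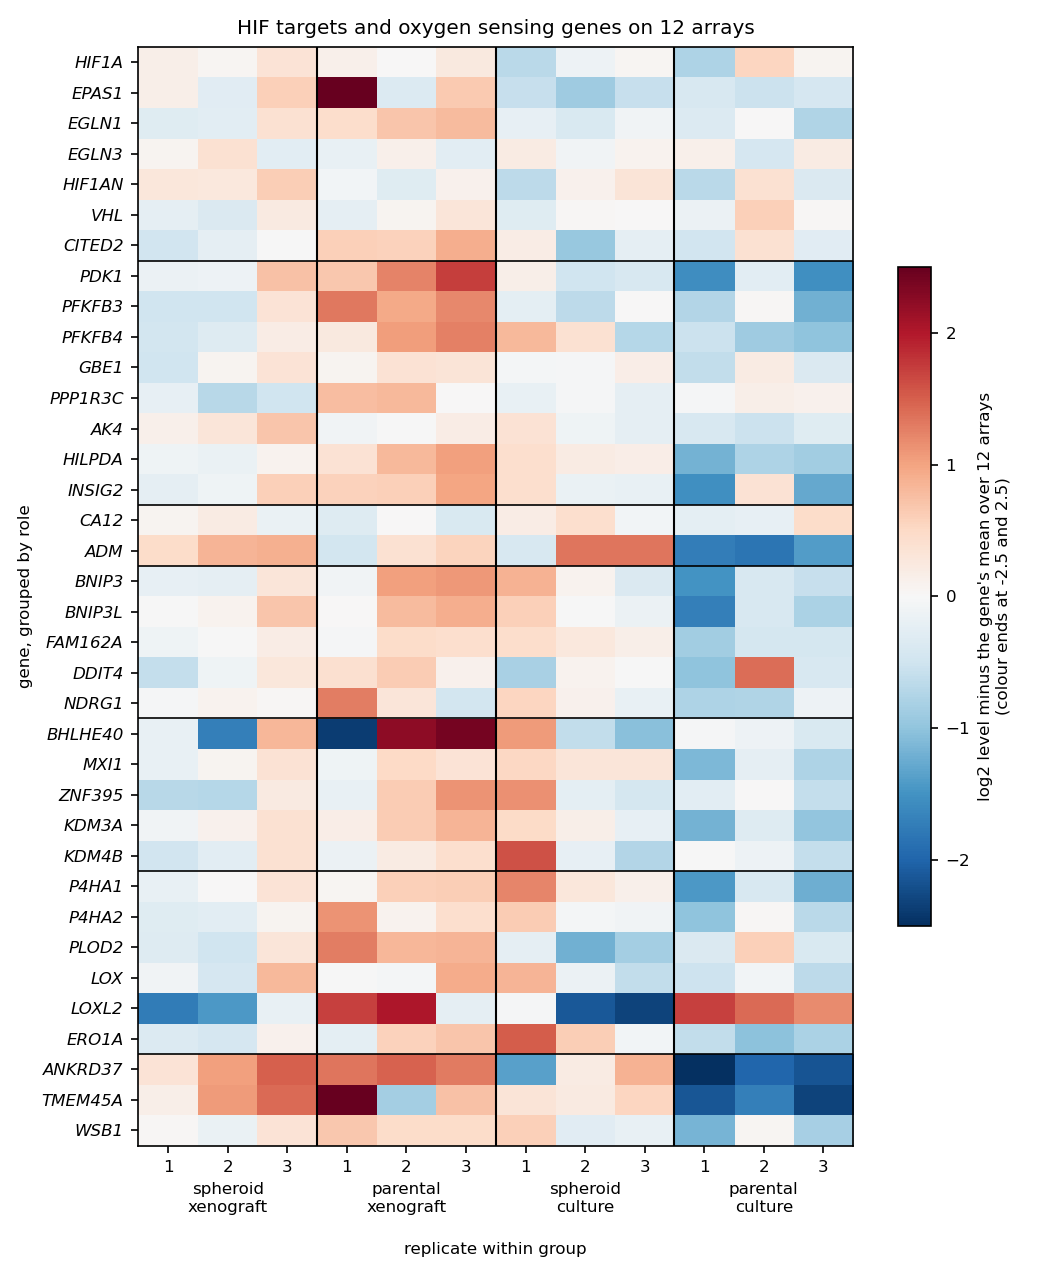
Log2 level of each of the 36 genes (rows, grouped by role) on each of the 12 arrays (columns), minus the gene's own mean over the 12 arrays; red is higher and blue lower, and the colour ends at -2.5 and 2.5. Most rows are blue in the 3 parental culture columns at the right and red in the parental xenograft columns, while LOXL2 runs the other way in culture.

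The calls moved with single arrays. Of the 21 or 22 alternatives run for each call, from 2 (HILPDA) to 17 (ERO1A) ended a call in culture, and from 0 (HILPDA and ANKRD37) to 9 (EGLN1, ADM, FAM162A and P4HA1, the last also with 1 reversal) ended a call in parental cells. In culture the 8 calls dropped to 1 without spheroid culture replicate 2, where HILPDA stayed called and the other 7 had adjusted p from 0.0727 to 0.198. They dropped to 2 without parental culture replicate 1 (lost adjusted p from 0.0504 to 0.0691) or replicate 3 (0.0544 to 0.123), to 3 without spheroid xenograft replicate 2 (0.0531 to 0.0770) or spheroid culture replicate 3 (0.0567 to 0.161), and to 4 without spheroid culture replicate 1 (0.0515 to 0.0900). In parental cells the 12 calls dropped to 4 without parental xenograft replicate 3 (0.0569 to 0.112) or parental culture replicate 3 (0.0552 to 0.125), to 5 without parental xenograft replicate 2 (0.0680 to 0.125), and to 6 without parental culture replicate 1 (0.0537 to 0.0772) or spheroid xenograft replicate 2 (0.05001 to 0.0581). They increased to 19 without parental culture replicate 2. Over all genes, the culture count went from 487 to 853 without parental culture replicate 1, where the member count fell from 8 to 2. Without spheroid culture replicate 2 it went to 77. In parental cells the count over all genes went from 687 to 247 without parental xenograft replicate 2 and to 1591 without parental culture replicate 2. HILPDA in culture, and HILPDA, ANKRD37, PDK1 and PFKFB3 in parental cells, stayed called whichever array was left out. With only the 6 arrays of a comparison in the fit, none of the 8 culture calls passed (0.0645 to 0.188), though TMEM45A then did, and 2 of the 12 in parental cells passed, HILPDA and ANKRD37. Without parental culture replicates 1 and 2 together, a setting chosen after the data were seen, none of the 8 culture calls (0.0555 to 0.273) and 6 of the 12 in parental cells passed.

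Of 7 genes for the HIF alpha subunits, their hydroxylases and other direct controls, EGLN1 alone was called, in 1 comparison. HIF1A read 11.88, 11.79 and 12.08 in spheroid xenografts and 11.87, 11.75 and 11.97 in parental xenografts. It read 11.06, 11.60 and 11.79 in spheroid culture, against 10.96, 12.28 and 11.81 in parental culture. HIF1A was high on every array, no difference was called, and its differences lay between -0.20 and 0.43 log2 units in the 4 comparisons of groups. HIF protein is controlled mainly after transcription, and protein was not measured.

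EPAS1, the alpha subunit of HIF-2, read 6.56, 6.13 and 7.01 in spheroid xenografts, against 5.83, 5.52 and 5.83 in spheroid culture. In parental xenografts it read 9.06, 6.08 and 7.07, against 6.01, 5.87 and 6.0 in parental culture. The xenografts lay above the cultures of the same origin on every array, and parental xenograft replicate 1 stood far above the other tumours. The difference of 1.44 log2 units in parental cells (SE 0.54) was not called (adjusted p = 0.216), and that of 0.84 in spheroid cells was called with the replicate block alone (adjusted p = 0.0320, against 0.834 without it). EPAS1 is also known as an endothelial gene. The 10 endothelial markers summed to 51.0 to 54.2 log2 units in parental xenografts and 51.5 to 55.3 in parental culture, and none of them was called in any comparison. KDR and TIE1 lay below the lower quartile on all arrays, and 3 to 5 of the 10 did so on each xenograft array. With markers this dim and the host species unstated, the part of endothelial RNA in the EPAS1 differences was not tested.

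EGLN1, the main HIF prolyl hydroxylase and itself a HIF target, read 10.52, 10.77 and 10.87 in parental xenografts, against 9.74, 10.08 and 9.32 in parental culture. It read 9.78, 9.82 and 10.46 in spheroid xenografts and 9.86, 9.71 and 9.99 in spheroid culture. The parental xenografts lay above every other array. EGLN1 rose by 1.00 log2 units (SE 0.22, adjusted p = 0.0322) in parental xenografts against parental culture, a 2.00-fold difference, and all 4 of its probe sets had that direction. Between the xenografts its difference was -0.70 and was not called (adjusted p = 0.330).

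EGLN3, a hydroxylase known to be strongly induced by hypoxia in many cells, read 6.41, 6.73 and 6.08 in spheroid xenografts and 6.15, 6.47 and 6.08 in parental xenografts. It read 6.55, 6.26 and 6.42 in spheroid culture, against 6.48, 5.91 and 6.55 in parental culture. All 12 values lay within 5.91 to 6.73, the groups overlapped throughout, and EGLN3 was called in no comparison. Its probe set averaged 6.34, close to the array medians of 5.85 to 6.03. The other probe set averaged 4.31, below the lower quartiles of 4.63 to 4.80. Whether EGLN3 was expressed above background was not tested. HIF1AN, the asparaginyl hydroxylase, read 8.77, 8.75 and 9.10 in spheroid xenografts, against 8.43, 8.17 and 8.60 in parental xenografts. It read 7.82, 8.59 and 8.80 in spheroid culture, against 7.80, 8.87 and 8.13 in parental culture. It was the 1 gene of the 36 whose spheroid xenografts all lay above the parental xenografts, where 9.30% of all genes did so, and its difference of 0.47 (SE 0.29) was not called (adjusted p = 0.927).

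VHL, the substrate receptor that captures hydroxylated HIF, read 6.98, 6.84 and 7.42 in spheroid xenografts and 6.97, 7.28 and 7.50 in parental xenografts. It read 6.89, 7.24 and 7.20 in spheroid culture, against 7.06, 7.81 and 7.22 in parental culture. Its groups overlapped in all 4 comparisons and none was called. CITED2, which competes with HIF for coactivators, averaged 9.37 ± 0.23 in spheroid xenografts and 10.31 ± 0.19 in parental xenografts (SD, n = 3 each). Those arrays did not overlap, and the difference of -0.94 (SE 0.28) was not called (adjusted p = 0.298) over all 12 arrays but was called with only the 6 xenograft arrays in the fit, with the replicate block (adjusted p = 0.0200) or without it.

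**Figure D2:**
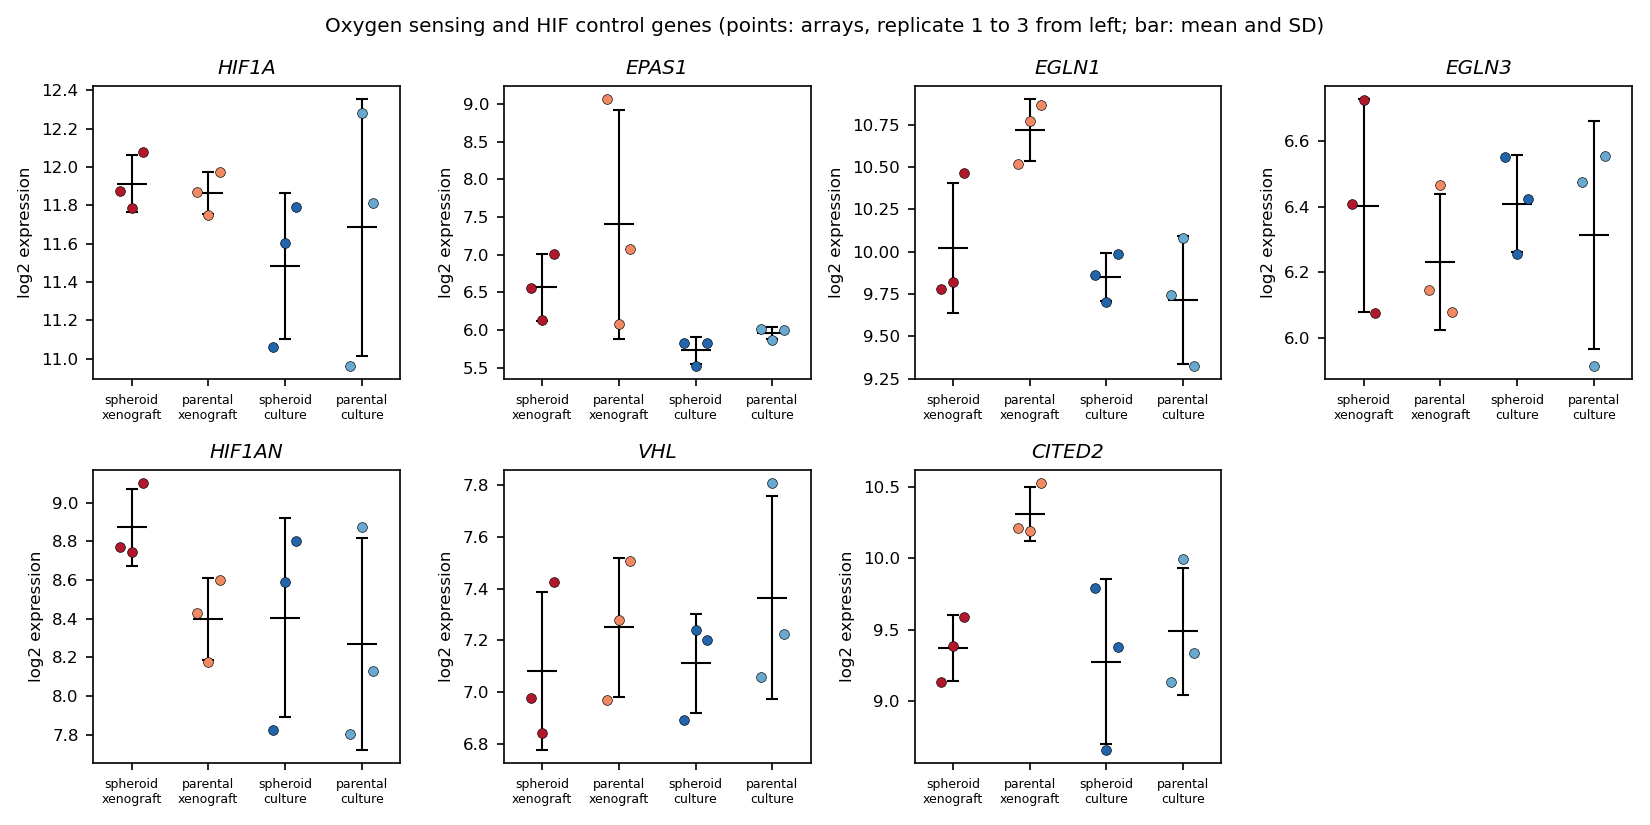
Log2 level (vertical axis, a separate scale per gene) of the 7 oxygen-sensing and HIF control genes on every array, by group; bars show the mean and SD of 3 arrays. EGLN1 is highest in the 3 parental xenografts, EPAS1 reaches 9.06 on 1 parental xenograft array, and the groups overlap for HIF1A, EGLN3 and VHL.

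A further 18 genes of the HIF machinery, among them ARNT, EGLN2, the coactivators EP300 and CREBBP and the ubiquitin ligase subunits CUL2 and RBX1, were listed beside the members, and 17 were measured. None was called in any of the 5 comparisons. Their median differences were 0.13 in culture, 0.0095 between xenografts, 0.064 in parental cells and 0.040 in spheroid cells. The lowest p in parental cells belonged to OS9, which was 0.45 log2 units higher in xenografts than in culture (SE 0.13, adjusted p = 0.0873).

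Of the 8 genes for glycolytic control, glycogen and lipid, 4 rose in parental xenografts against parental culture, namely PDK1, PFKFB3, PFKFB4 and HILPDA, and 1, HILPDA, rose in spheroid culture against parental culture. None fell. The median of the 8 was 1.60 log2 units in parental cells and 0.0045 in spheroid cells, xenografts against culture, the last running from -0.22 without spheroid xenograft replicate 3 to 0.20 without replicate 1. Between spheroid and parental cells it was 0.63 in culture and -0.88 between the xenografts.

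HILPDA, a lipid droplet protein that restrains fat breakdown, had the lowest p of the 36 in culture, in parental cells and in the interaction. It read 9.78, 9.56 and 9.53 in spheroid culture, against 8.18, 8.59 and 8.48 in parental culture. In spheroid xenografts it read 9.26, 9.19 and 9.45, against 9.72, 10.17 and 10.37 in parental xenografts. Every spheroid array was above every parental array in culture and every one was below in xenografts, and HILPDA was the 1 gene of the 36 to separate both ways, where 0.374% of all genes did. It rose by 1.21 log2 units (SE 0.18, adjusted p = 0.00744) in spheroid culture against parental culture, and by 1.67 (adjusted p = 0.00133), a 3.18-fold difference, in parental xenografts against parental culture. Between the xenografts its difference was -0.78 (adjusted p = 0.138, or 0.0479 with the replicate block). The interaction was -1.99 (SE 0.26, adjusted p = 0.0171), and both of its probe sets had the direction of each of these differences. The interaction call was lost, at adjusted p from 0.0561 to 0.0813, without spheroid xenograft replicate 1 or 2, parental xenograft replicate 2, or spheroid culture replicate 2 or 3.

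PDK1, the kinase that inhibits pyruvate dehydrogenase, read 9.47, 10.04 and 10.54 in parental xenografts, against 7.25, 8.54 and 7.26 in parental culture. It read 8.66, 8.67 and 9.53 in spheroid xenografts and 8.94, 8.30 and 8.39 in spheroid culture. Parental culture replicate 2 stood above the other arrays of its group and still below every parental xenograft. PDK1 rose by 2.33 log2 units (SE 0.38, adjusted p = 0.0071) in parental xenografts against parental culture, a 5.04-fold difference, with all 3 probe sets in that direction.

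PFKFB3 and PFKFB4 make the metabolite that drives phosphofructokinase, PFKFB4 also with the reverse activity. PFKFB3 read 9.12, 8.74 and 9.0 in parental xenografts, against 7.07, 7.82 and 6.60 in parental culture. It read 7.30, 7.31 and 8.13 in spheroid xenografts and 7.55, 7.15 and 7.80 in spheroid culture. The parental xenografts stood above all 9 other arrays, and PFKFB3 rose by 1.79 log2 units (SE 0.31, adjusted p = 0.00998) against parental culture. PFKFB3 was read by a single probe set. Between the xenografts its difference, spheroid minus parental, was -1.37, which was not called over all 12 arrays (adjusted p = 0.118) but was called without parental culture replicate 2 and with only the 6 xenograft arrays in the fit, with or without the replicate block.

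PFKFB4 read 8.47, 9.27 and 9.48 in parental xenografts, against 7.68, 7.33 and 7.22 in parental culture. It read 7.76, 7.90 and 8.42 in spheroid xenografts and 9.04, 8.60 and 7.51 in spheroid culture. PFKFB4 rose by 1.66 log2 units (SE 0.36, adjusted p = 0.0296) in parental xenografts against parental culture, and both probe sets had that direction. Of the other 4 genes, the glycogen scaffold PPP1R3C had the lowest p of all 36 between the xenografts, at 5.69, 5.21 and 5.40 in spheroid xenografts, against 6.66, 6.70 and 5.89 in parental xenografts. Those arrays did not overlap, and the difference of -0.98 (SE 0.21) missed the threshold (adjusted p = 0.0978) but passed without parental xenograft replicate 3. The other 3, the glycogen brancher GBE1, the mitochondrial adenylate kinase AK4 and the sterol sensor partner INSIG2, were called nowhere, and INSIG2 came closest in parental cells at 1.54 (adjusted p = 0.0688).

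Of the genes for pH control and secreted peptides, ADM was called and CA12, a membrane carbonic anhydrase, was not. All 12 values of CA12 lay within 6.32 to 7.17. Its probe set averaged 6.71 and its others 5.11 to 6.70, and whether CA12 was expressed above background was not tested. ADM encodes adrenomedullin, a peptide that widens vessels and promotes their growth. It read 10.56, 12.29 and 12.29 in spheroid culture, against 9.22, 9.12 and 9.56 in parental culture. In spheroid xenografts it read 11.42, 11.81 and 11.85, against 10.50, 11.34 and 11.51 in parental xenografts. Parental culture lay below all 9 other arrays, and the xenograft groups overlapped. ADM rose by 2.41 log2 units (SE 0.41, adjusted p = 0.0114) in spheroid culture, a 5.33-fold difference, and by 1.82 (adjusted p = 0.0336) in parental xenografts, each against parental culture. ADM was read by a single probe set, and its culture call was lost without spheroid culture replicate 2 (adjusted p = 0.0727) or replicate 3 (adjusted p = 0.0567).

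Of 5 genes for mitochondrial clearance and growth restraint, FAM162A and BNIP3L rose in parental xenografts and FAM162A in spheroid culture, each against parental culture, and none fell. The other 3, BNIP3, DDIT4 and NDRG1, did not pass in any comparison. FAM162A, a mitochondrial protein linked to cell death in hypoxia, read 12.55, 12.37 and 12.25 in spheroid culture, against 11.24, 11.68 and 11.67 in parental culture. In spheroid xenografts it read 12.01, 12.10 and 12.31, against 12.08, 12.57 and 12.53 in parental xenografts. Parental culture lay below all other arrays. FAM162A rose by 0.86 log2 units in spheroid culture (SE 0.18, adjusted p = 0.0288) and by 0.86 in parental xenografts (adjusted p = 0.0241), each against parental culture, and all 5 probe sets had these directions. Without probe sets with the suffix _x_at or _s_at its differences were 0.52 (adjusted p = 0.108) and 0.12 (adjusted p = 0.905), and 11 and 9 of 22 alternatives ended these calls.

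BNIP3L, a receptor that hands mitochondria to autophagy, read 10.92, 11.69 and 11.80 in parental xenografts, against 9.18, 10.50 and 10.11 in parental culture. It read 10.90, 10.98 and 11.58 in spheroid xenografts and 11.49, 10.89 and 10.76 in spheroid culture. BNIP3L rose by 1.54 log2 units (SE 0.35, adjusted p = 0.0334) in parental xenografts against parental culture, and its difference in culture, 1.12, was not called (adjusted p = 0.131) although the arrays did not overlap. Its relative BNIP3 had differences of 1.5 in parental cells (adjusted p = 0.0591) and 1.02 in culture (adjusted p = 0.235), neither of them called. NDRG1 is a stress-induced growth suppressor, and its difference in parental cells had an adjusted p of 0.240. DDIT4, an inhibitor of mTORC1, read 11.35, 11.58 and 11.05 in parental xenografts, against 9.94, 12.35 and 10.55 in parental culture. The groups overlapped, the culture arrays were 2.40 log2 units apart, and the difference was 0.38 (SE 0.49, adjusted p = 0.900).

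Of 5 genes for transcription and chromatin, MXI1 rose in spheroid culture and KDM3A in parental xenografts, each against parental culture, and none fell. MXI1, an antagonist of MYC, read 10.88, 10.66 and 10.66 in spheroid culture, against 9.22, 10.13 and 9.58 in parental culture. It read 10.16, 10.43 and 10.72 in spheroid xenografts, against 10.25, 10.85 and 10.70 in parental xenografts. The difference was 1.09 log2 units in culture (SE 0.24, adjusted p = 0.0352). In parental cells it was 0.96 and just missed the threshold (adjusted p = 0.0504). MXI1 was read by a single probe set.

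KDM3A, a demethylase of histone H3 lysine, read 10.67, 11.14 and 11.36 in parental xenografts, against 9.32, 10.20 and 9.53 in parental culture. It read 10.43, 10.63 and 10.89 in spheroid xenografts and 10.996, 10.65 and 10.31 in spheroid culture. KDM3A rose by 1.37 log2 units (SE 0.26, adjusted p = 0.0160) in parental xenografts against parental culture, and the difference of 0.97 in culture was not called (adjusted p = 0.0798). Its other probe set was dim, with a mean of 3.98, and differed by 0.0084 and 0.011. BHLHE40, a transcriptional repressor, was the most uneven of the 36 genes, at 8.10, 6.58 and 9.11 in spheroid xenografts and 5.92, 10.53 and 10.68 in parental xenografts. Its parental xenograft arrays were 4.77 log2 units apart, and it was called nowhere. ZNF395 and KDM4B were called nowhere either.

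Enzymes that modify collagen or fold secreted proteins split in direction. In culture P4HA1 and ERO1A rose and LOXL2 fell in spheroid against parental cells, while P4HA1 alone of the 6 was called in parental xenografts, where it rose. P4HA1, the catalytic subunit of collagen prolyl hydroxylase, read 11.26, 10.33 and 10.17 in spheroid culture, against 8.61, 9.65 and 8.81 in parental culture. It read 9.86, 10.05 and 10.38 in spheroid xenografts, against 10.10, 10.64 and 10.66 in parental xenografts. P4HA1 rose by 1.57 log2 units in spheroid culture (SE 0.32, adjusted p = 0.0267) and by 1.45 in parental xenografts (adjusted p = 0.0311), each against parental culture. Its other probe set was dim, with a mean of 4.03, and differed by 0.050 and -0.045, so these calls rest on 1 probe set.

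ERO1A, the oxidase that recharges disulphide bond formation, read 12.07, 11.16 and 10.47 in spheroid culture, against 9.93, 9.53 and 9.75 in parental culture. It read 10.21, 10.13 and 10.65 in spheroid xenografts, against 10.30, 11.12 and 11.24 in parental xenografts. ERO1A rose by 1.5 log2 units in spheroid culture (SE 0.35, adjusted p = 0.0479), close to the threshold, and 17 of 22 alternative settings ended that call. It was lower in spheroid xenografts than in spheroid culture, by the largest negative difference of the 36 there, -0.90, which was not called (adjusted p = 0.571).

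LOXL2, an enzyme that cross-links collagen, was the member that fell. It read 8.18, 6.09 and 5.90 in spheroid culture, against 9.92, 9.61 and 9.38 in parental culture. In spheroid xenografts it read 6.46, 6.77 and 8.02, against 9.90, 10.23 and 7.98 in parental xenografts. The culture groups did not overlap, and the xenograft groups overlapped by 1 array of each. LOXL2 fell by 2.91 log2 units in spheroid culture against parental culture (SE 0.66, adjusted p = 0.0414), and its difference between the xenografts was -2.29 (adjusted p = 0.261). Of its 4 probe sets 2 had the negative direction in culture, the others differing by 0.19 and 0.16 at lower levels, and 12 of 21 alternative settings ended the call. P4HA2, PLOD2 and LOX, which act on the same proteins, were called nowhere, and PLOD2 had its lowest p between the xenografts, at -1.16 (adjusted p = 0.225, or 0.0497 with the replicate block).

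Of the remaining targets, ANKRD37 and TMEM45A had the largest differences of the 36 genes in parental cells. ANKRD37, an ankyrin repeat protein whose function is little known, read 9.17, 9.30 and 9.13 in parental xenografts, against 5.30, 5.84 and 5.67 in parental culture. It read 8.16, 8.86 and 9.32 in spheroid xenografts, against 6.47, 8.03 and 8.69 in spheroid culture. ANKRD37 rose by 3.60 log2 units (SE 0.45, adjusted p = 0.00234), a 12.1-fold difference, in parental xenografts against parental culture. It rose by 2.13 (adjusted p = 0.0311) in spheroid culture against parental culture, where spheroid culture replicate 1 stood below the others of its group. Its difference between spheroid xenografts and spheroid culture, 1.05, was the highest of the 36 there and was not called (adjusted p = 0.639) except with the replicate block (adjusted p = 0.0455). The other probe set of ANKRD37 was dim, with a mean of 4.47. It differed by 0.15 in parental cells, 0.12 in culture and -0.026 in spheroid cells, so these differences rest on 1 probe set.

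TMEM45A, a membrane protein, read 10.65, 7.23 and 8.81 in parental xenografts, against 5.94, 6.38 and 5.76 in parental culture. It read 8.23, 9.15 and 9.50 in spheroid xenografts and 8.40, 8.31 and 8.63 in spheroid culture. The parental xenografts were 3.43 log2 units apart and still above parental culture on every array. TMEM45A rose by 2.87 log2 units (SE 0.63, adjusted p = 0.0303) in parental xenografts, and its difference of 2.42 in culture was not called (adjusted p = 0.0728). TMEM45A was read by a single probe set, and no ACGTG or GCGTG was found in its promoter window. WSB1, a ubiquitin ligase subunit known to act on VHL, was called nowhere, with 1.18 in parental cells (adjusted p = 0.0558) and all 5 probe sets in that direction.

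**Figure D3:**
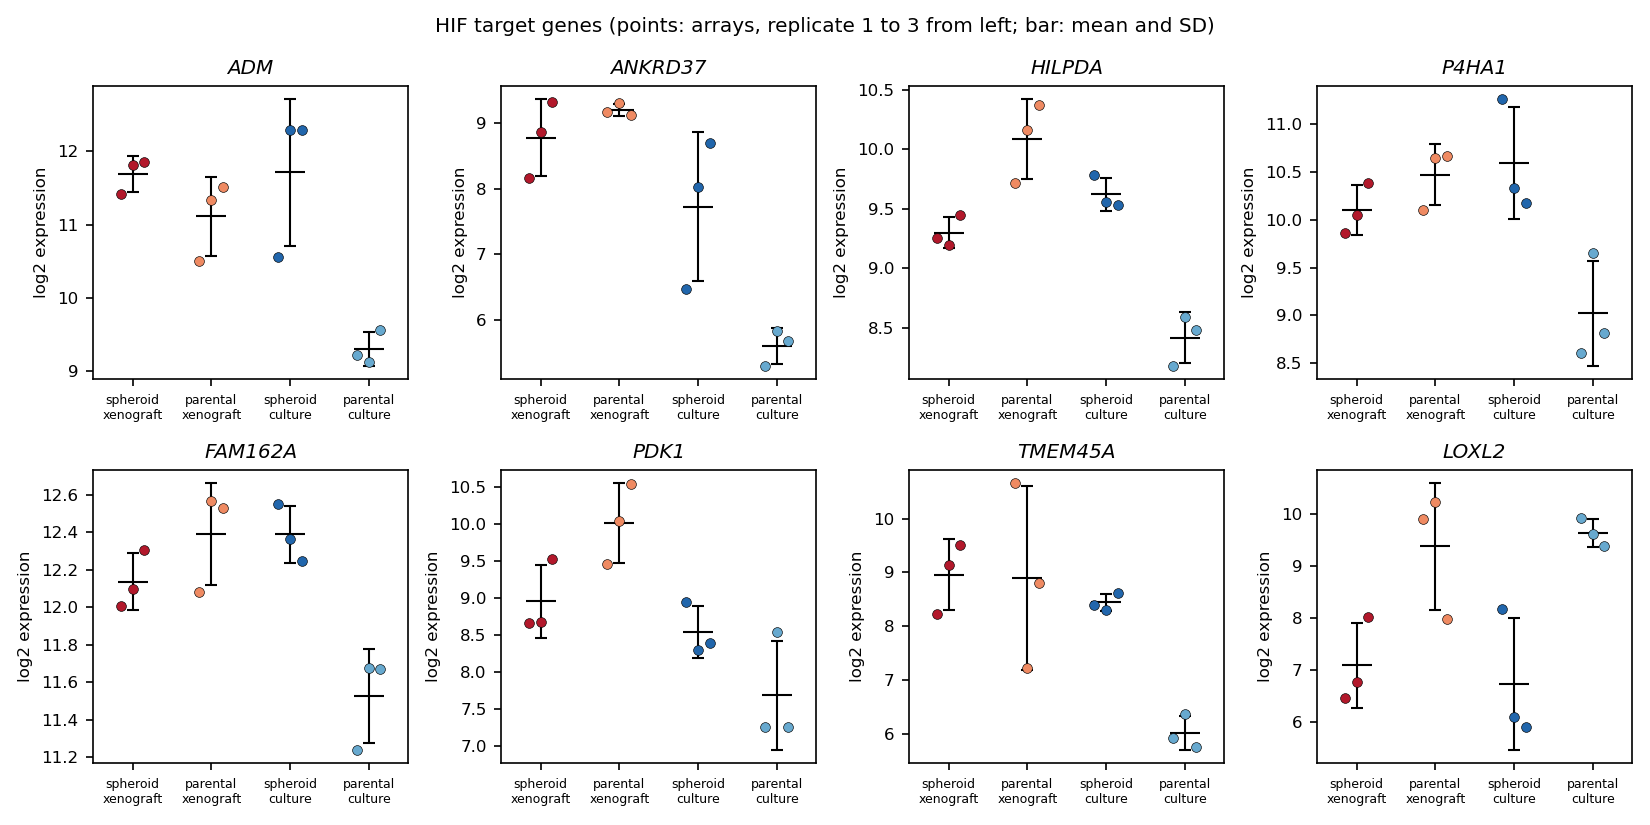
Log2 level (vertical axis, a separate scale per gene) of 8 HIF targets on every array, by group; bars show the mean and SD of 3 arrays. Parental culture has the lowest mean for 7 of them and the highest for LOXL2.

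By the median of the 36 genes, spheroid cells stood above parental cells in culture and below them in xenografts. The difference was positive in culture for 27 genes (75.0%, against 61.7% of all genes) and between the xenografts for 7 (19.4%, against 54.2%). Its median was 0.45 in culture, against 0.070 over all genes, and -0.44 between the xenografts, against 0.019. With single arrays left out, the culture median ran from 0.37 without spheroid culture replicate 1 to 0.79 without replicate 3. It was 0.73 with parental culture replicates 1 and 2 both left out, where the median of all genes was -0.035. The median between the xenografts ran from -0.64 without spheroid xenograft replicate 3 to -0.31 without replicate 1. For 21 genes (58.3%, against 24.1% of all genes) the difference was positive in culture and negative between the xenografts. Between the xenografts 9 genes did not overlap in the lower direction (25.0%, against 7.21% of all genes). They were EGLN1, CITED2, PFKFB3, PFKFB4, PPP1R3C, HILPDA, P4HA2, PLOD2 and WSB1.

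**Figure D4:**
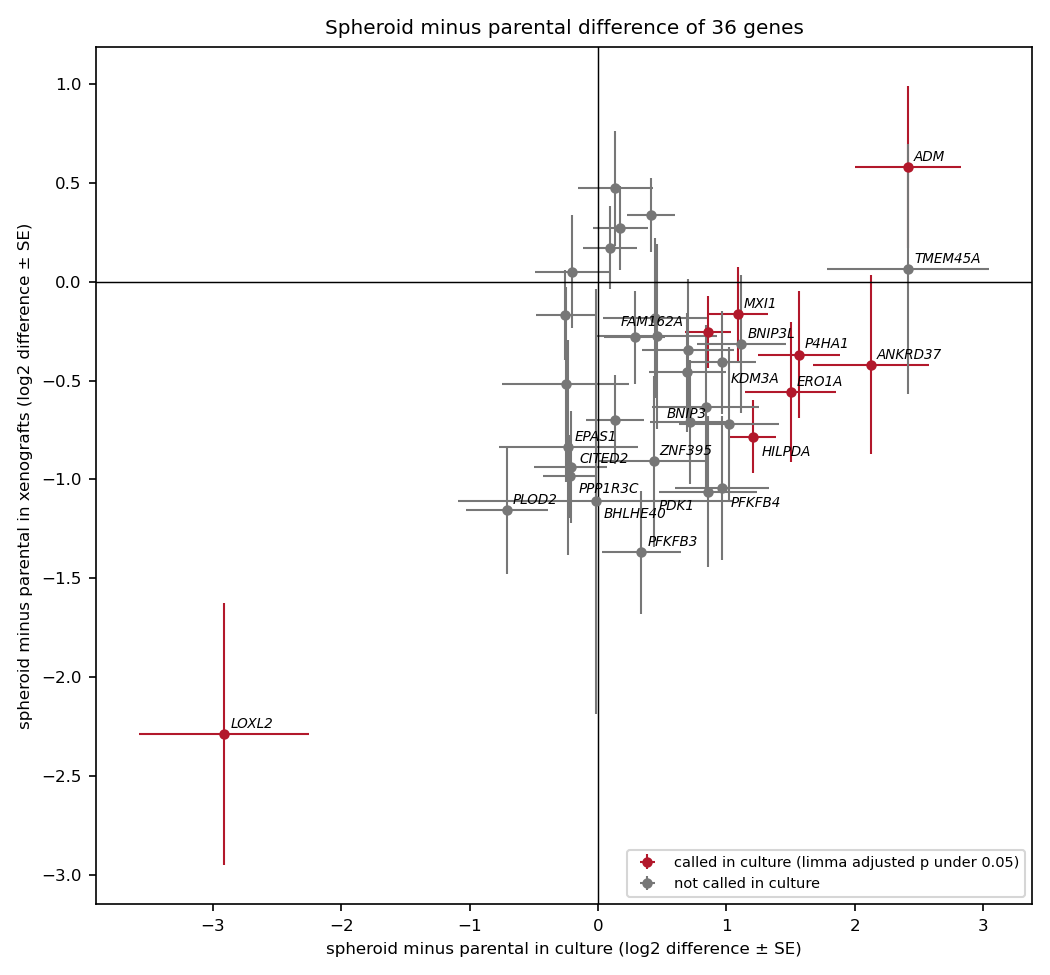
Spheroid minus parental log2 difference of each gene in culture (horizontal axis) and between xenografts (vertical axis), with the SE of each; red marks the 8 genes called in culture. Most points lie right of 0 and below 0, ADM and TMEM45A lie far right and above 0, and LOXL2 is negative on both axes.

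The interaction had a median of -1.10 log2 units, against -0.044 over all genes, and was positive for 6 of the 36 (16.7%, against 43.4%). HILPDA alone was called, and 20 of the 36 had an unadjusted p under 0.05, all negative, where 1465 of all genes did in either direction. After HILPDA the lowest adjusted p belonged to FAM162A (-1.11, SE 0.25, adjusted p = 0.148), P4HA1 (-1.93, adjusted p = 0.157) and ERO1A (-2.06, adjusted p = 0.185). The call count was 7 without parental culture replicate 2 and 3 without spheroid culture replicate 1. The comparisons in culture and in parental cells and the interaction all use the same 3 parental culture arrays, so their values for a gene are not independent. The 12 genes that did not overlap in the higher direction both in spheroid culture and in parental xenografts against parental culture (33.3%, against 2.37% of all genes) share those arrays too.

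**Figure D5:**
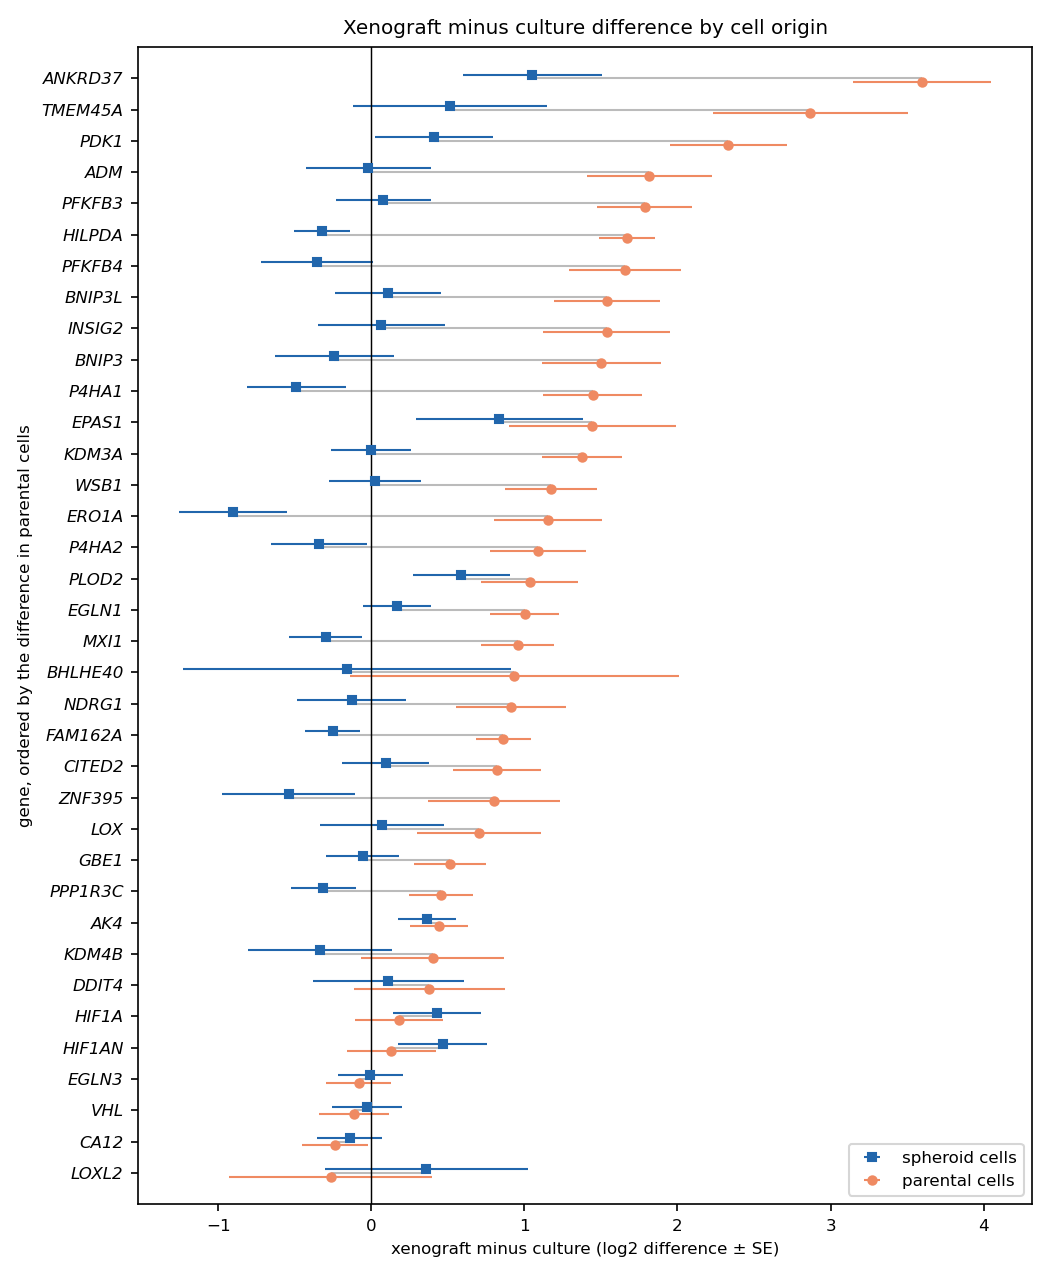
Xenograft minus culture log2 difference of the 36 genes with its SE, for spheroid cells (blue squares) and parental cells (orange circles), ordered by the parental value. The parental values reach 3.60 for ANKRD37 and are positive for 32 genes, while the spheroid values lie between -0.90 and 1.05 and are positive for 17.

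In parental cells the difference between xenografts and culture was positive for 32 genes (88.9%, against 48.2% of all genes), and 23 did not overlap in the higher direction (63.9%, against 7.37%) and 0 in the lower direction, where 6.28% of all genes did. In spheroid cells it was positive for 17 (47.2%, against 41.3%), a count that was 9 without spheroid xenograft replicate 3, where the median was -0.13, and 22 without spheroid culture replicate 1, where it was 0.14. EPAS1 alone did not overlap there in the higher direction (8.85% of all genes) and HILPDA alone in the lower (9.85%). Some fibroblast markers also differed in parental cells. Of 10 such markers 2 rose in xenografts against culture, the collagen gene COL3A1 by 2.06 log2 units (adjusted p = 0.0126) and the surface protease gene FAP by 2.20 (adjusted p = 0.00085). The other 8 fibroblast markers were not called there. The fibroblast list median in parental cells was 0.10, with 8 positive and 2 negative. FAP also fell by 1.35 (adjusted p = 0.0365) in spheroid xenografts against parental xenografts. The summed fibroblast level was 63.7 to 68.1 log2 units in parental xenografts, against 58.8 to 62.6 in parental culture. It was 63.0 to 64.0 in spheroid xenografts and 61.6 to 63.3 in spheroid culture, and LUM lay below the lower quartile on all arrays. The fibroblast, myeloid and erythroid sums were all lowest on parental culture replicate 2 (58.8, 46.2 and 33.7), the array of widest interquartile range. No marker of the 10 endothelial, 9 myeloid or 6 erythroid genes measured was called in any comparison. Of 10 markers listed for the carcinoma line, 3 fell in parental xenografts against parental culture, the keratin genes KRT8 by 1.77 (adjusted p = 0.00278) and KRT18 by 1.71 (adjusted p = 0.0191) and the cadherin gene CDH2 by 0.71 (adjusted p = 0.0439). Calls in that direction made up 30.0% of the list, against 1.48% of all genes. The other 7 were not called. The list median in parental cells was -0.036, with 4 positive and 6 negative, and VIM had the highest difference, 0.52. KRT8 also fell by 1.43 (adjusted p = 0.0109) in spheroid culture against parental culture. The summed level of the 10 was 75.7 to 77.0 log2 units in parental xenografts and 77.0 to 79.0 in spheroid culture, against 78.7 to 81.3 in parental culture, and it was 75.8 to 77.3 in spheroid xenografts. The part of fibroblast or carcinoma line RNA in the HIF target differences was not tested.

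Of 28 further HIF targets listed beside the members, 26 were measured and 9 were called in at least 1 comparison (34.6%, against 4.81% of all genes). In parental cells 5 rose (19.2%, against 2.00% of all genes) and 1 fell (3.85%, against 1.48%) in xenografts against culture. ANGPTL4, a secreted regulator of lipase, rose by 1.47 log2 units (adjusted p = 0.0437), and the glycolytic enzyme genes ALDOA and LDHA by 1.17 (adjusted p = 0.0422) and 1.03 (adjusted p = 0.0271). STC2, a secreted glycoprotein gene, fell by 1.68 (adjusted p = 0.00085) in the same comparison and by 0.87 (adjusted p = 0.0217) in spheroid culture against parental culture. ALDOC, a further aldolase gene, rose in spheroid cells by 1.71 in culture (adjusted p = 0.00994) and by 1.68 between the xenografts (adjusted p = 0.0370). The xenograft call ended in 11 of 23 alternatives, among them each single xenograft array left out (adjusted p up to 0.213) and the replicate block over all 12 arrays (0.0573), while the block on the 6 xenograft arrays kept it (0.0101). STC1, the relative of STC2, fell by 3.43 (adjusted p = 0.0207) in spheroid xenografts against parental xenografts. In parental cells 13 of 21 alternatives ended the ANGPTL4 call, 11 of 21 the ALDOA call and 5 of 21 the LDHA call, and none of 22 ended that of STC2. In culture 3 of 22 ended the ALDOC call and 8 of 22 that of STC2, and between the xenografts 2 of 22 ended that of STC1. The list medians were 0.31 in culture, -0.18 between the xenografts, 0.45 in parental cells and -0.060 in spheroid cells. Without parental culture replicate 1 they were 0.14 in culture and 0.21 in parental cells, and in spheroid cells the median ran from -0.14 without spheroid xenograft replicate 3 to -0.011 without replicate 1.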

How the data were processed

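Total RNA (2 µg per sample) was labelled, and the labelled product was hybridised to 12 Affymetrix HG-U133 Plus 2.0 arrays, 1 per sample. The deposited values are log2 expression levels made with RMA and the affy package, per the submitters' processing notes. Their versions and the set of arrays normalised jointly are unstated in the labels, and the 12 columns do not share 1 distribution. Of 54675 probe sets, 41097 had 1 gene symbol, 1801 several and 11777 none, and symbols of 41037 were updated by gene number. No filter on dim probe sets was applied. In R 4.3.3, limma 3.58.1 was fitted to all 12 arrays with 1 mean per group (8 residual degrees of freedom), moderated by eBayes, and all tests were two-sided. Deviations of same-numbered samples from their group means correlated above 0.1 in all 3 pairs between spheroid and parental xenografts (0.18 to 0.48) and between spheroid xenografts and spheroid culture (0.33 to 0.43), so numbers were taken to pair those samples, from the data and not the labels. They did so in 1 of 3 pairs between parental culture and spheroid culture or parental xenografts. The own number gave the best correlation for 2 of 3 arrays of each group between the xenografts, and for 3 of 3 between spheroid xenografts and spheroid culture. Precision is set by 3 arrays per group, with a median SE over genes of 0.20 (group differences) or 0.28 (interaction). The code was tested on simulated data. Members, lists and comparisons were chosen with earlier results of these data known. Array values are given for each called member and for HIF1A, EPAS1, VHL, EGLN1, EGLN3 and HIF1AN, and other members by range, counts or the lowest p of their group. From the further lists up to 4 called genes with the largest difference are named, or, with none called, the gene of lowest p. Alternatives covered normalisation, probe set choice, a dim filter, array spread, the replicate block, the groups fitted and each array left out.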

Additional observations from a re-analysis of the deposited data

Results flagged for a closer look

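The spheroid-to-parental difference of HILPDA was not the same in the tumours as in culture, by the interaction term of the limma model. The interaction was -1.99 log2 units (SE 0.26, adjusted p = 0.0171), from a difference of -0.78 between the xenografts and 1.21 in culture. Of 21 alternatives 5 ended the call (adjusted p up to 0.0813).

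SLC2A3, a neuronal-type glucose transporter gene on the list of further HIF targets, differed in the same way. Its interaction was -3.12 log2 units (SE 0.50, adjusted p = 0.0416). It read 8.90, 8.99 and 9.09 in spheroid xenografts, against 11.29, 11.04 and 10.21 in parental xenografts. In spheroid culture it read 11.33, 10.65 and 10.20, against 8.98, 10.14 and 9.28 in parental culture. Spheroid arrays lay above all parental arrays in culture and below all of them in xenografts, though neither difference was called alone (adjusted p = 0.0945 in culture and 0.0652 between the xenografts). Of 20 alternatives 12 ended the interaction call, namely median centring (adjusted p = 0.0569), the mean of all probe sets (0.0914), the replicate block (0.0554) and 9 of the 12 single arrays left out (0.0607 to 0.148). The direction stayed negative in all 20, from -3.46 to -2.81.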

How the results depend on the processing

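Of the 21 member calls under the 21 or 22 alternatives run for each, 319 repeats kept their direction and passed, 138 kept their direction and failed, and 1 reversed. That was P4HA1 in parental cells, at -0.045 (adjusted p = 0.978) once probe sets with the suffix _x_at or _s_at were dropped, where a dim probe set replaces the one used. PFKFB3, KDM3A and LOXL2 then had no probe set left. Results are given below in the order culture, between xenografts, parental cells, spheroid cells, interaction, for counts that moved by over 1.5 times. Members called were 8, 0, 12, 0 and 1, and all genes called were 487, 46, 687, 4 and 27.

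Without those probe sets, members were 4 in culture, and all genes were 23 between xenografts and 441 in parental cells. Quantile normalisation again called 1096 genes in culture, 1178 in parental cells (520 higher and 658 lower, against 395 and 292), 40 in spheroid cells (22 higher and 18 lower, against 4 and 0) and 133 in the interaction (79 and 54, against 13 and 14). Cyclic loess called 911 in culture, 25 between xenografts (2 and 23, against 10 and 36), 17 in spheroid cells and 82 in the interaction. Median centring called 10 in the interaction. The mean of all probe sets called 7 in spheroid cells, and genes above the lower quartile gave 8. Array interquartile range as a covariate called 13 members in culture, 3 between xenografts (PFKFB3, PPP1R3C and HILPDA) and 8 in the interaction, and 1750, 290, 1901, 204 and 355 genes. Only the groups compared gave 1, 2 (CITED2 and PFKFB3) and 2 members and 15, 161, 69 and 117 genes.

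With the replicate block over all 12 arrays, members called were 6, 0, 10, 0 and 1, and all genes 8 in spheroid cells and 12 in the interaction. LOXL2 and ERO1A in culture, and EGLN1, PFKFB4 and P4HA1 in parental cells, were lost (adjusted p from 0.0502 to 0.0773) and MXI1 was gained in parental cells. Those comparisons share only a number with parental culture, where 1 of 3 same-numbered pairs correlated above 0.1 and replicates 2 and 3 correlated best with other numbers. With the block on the 6 arrays of a comparison, chosen after seeing the data, 6 members and 491 genes were called between xenografts and 2 members and 591 genes in spheroid cells.

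Leaving out each array in turn gave 1 to 10, 0 to 1, 4 to 19, 0 and 0 to 7 members, and 77 to 853, 4 to 140, 247 to 1591, 1 to 57 and 2 to 186 genes. Leaving out parental culture replicates 1 and 2 together, chosen after seeing the data, left that group 1 array, assumed to vary like the others. It gave 0 members in culture, 1 between xenografts (PFKFB3) and 7 in parental cells, and 245, 107, 49 and 62 genes in culture, between xenografts, in spheroid cells and in the interaction. The causes were not tested. Arrays give signal over background and not counts, and LOX, the dimmest member, lay below the lower quartile on 2 arrays.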
